A study of Danio rerio with 12 samples.

Results

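Immediate early genes are the first genes that a stimulated cell transcribes, switched on within minutes of calcium entry or growth factor signalling, before any new protein is made. In the brain many of them encode transcription factors (FOS, JUN, EGR, NPAS4 and NR4A proteins) that set off later gene programmes, and others encode effectors that end the signal or restrain growth, such as the phosphatases that switch off MAP kinases. Their RNA is short-lived, so their level in a neuron follows its recent activity, and in other cells it follows stress or handling. The genes described here are 45 listed immediate early and activity-regulated genes of zebrafish (Danio rerio), taken from the tables by symbol, in adult brains of 2 lineages. Of these 45, 32 had a row under the listed symbol among the 32674 rows of the tables, and 31 passed the filter on low values.

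The MeHg lineage descends from eggs of the EK strain held for 24 h in 0.03 µM methylmercury, an organic mercury compound that enters the brain. The control lineage descends from EK eggs held for the same time in the ethanol vehicle with 0 µM methylmercury. Only those eggs, called F1, were treated, and the brains are from adult F3 fish of each lineage, so the data ask whether the descendants of treated fish differ in brain RNA. The labels describe 6 biological replicates per lineage, and 6 MeHg libraries (replicates 1, 2, 4, 5, 7 and 8) and 5 control libraries (replicates 2, 4, 5, 6 and 8) were analysed here. The labels give neither the age and sex of the fish nor whether a library holds 1 brain or several. They also name no separate families within a lineage, so treatment cannot be told apart from other differences between the lineages. Each p between lineages is set against the spread among libraries, not among separately treated families.

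Levels are given as scaled counts, the authors' fragment counts corrected for each library by its own size factor, and levels of different genes are compared only in FPKM, which is also divided by gene length. Implied depth was 3248615 to 7503932 fragments in MeHg libraries and 2062482 to 6100929 in control libraries. Neuron markers marked every library as brain, with a summed level of 2346 to 3145 FPKM in MeHg libraries and 2099 to 2996 FPKM in control libraries over 8 markers, none of them at 0. Control replicate 5 stood apart from the other 10 libraries. Its radial glia markers summed to 6107 FPKM, against 1880 to 3623 in the others, and its erythrocyte markers summed to 703 FPKM, against 31.6 to 152. It held the lowest value of 28.2% of all 16364 tested genes and the highest value of 25.1%. Epidermis markers (14 of 17 with a row) were high in MeHg replicates 4 and 5 and control replicate 4, at 5198, 8281 and 11720 summed FPKM, against 220.2 to 1345 FPKM in the other libraries. Muscle markers (15 of 16 with a row) were highest in MeHg replicate 4 at 3403 FPKM, against 12.1 to 643 FPKM in the others, and pituitary markers (8 of 9) reached 4865 FPKM there, against 7.51 to 69.9 FPKM. Retina and pineal markers (6 of 9) reached 3505 FPKM in MeHg replicate 8, against 16.3 to 223 FPKM in the others. Of 16 library measures and list scores, none gave an exact two-sided permutation p under 0.05 between lineages, with p from 0.333 to 0.905. With 6 and 5 libraries this does not show that tissue content was equal. In whole brain, fewer cells of a type and less RNA per cell cannot be told apart.

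No member passed the test between lineages, yet most of them had higher mean levels in the MeHg lineage. The test was limma on log2(scaled count + 1), with Benjamini-Hochberg adjustment over all 16364 tested genes and a threshold of 0.05. It called 0 of 31 members, beside 0.269% of all tested genes, and voom with sample quality weights also called 0. The smallest adjusted p of a member in limma was 0.265, that of npas4a. At an unadjusted p under 0.05, limma gave 10 of 31 members with higher values in the MeHg lineage, beside 3.31% of all tested genes. With lower values it gave 1 of 31 members, beside 3.30% of all tested genes. The log2 fold change of MeHg over control lineage was positive for 27 of 31 members, against 54.3% of all tested genes, and its median was 0.45 over the members and 0.03 over all tested genes. A stricter filter, a scaled count of 10 in all libraries, dropped klf4, 1 of the 10. It left 9 of 30 members with higher values at an unadjusted p under 0.05 in limma, beside 3.42% of all genes. The 10 of the main filter rest in part on control replicate 5. Without that library, 4 members had higher and 1 lower values at an unadjusted p under 0.05, which is 16.1% of members beside 9.36% of all genes, and the median log2 fold change was 0.31 with 26 of 31 positive, beside 48.1% of all genes. The 5 were npas4a, egr2b, jund, csrnp1b and, lower, gadd45bb. Leaving out MeHg replicate 5 or control replicate 2 gave 6 members each, or 19.4% of members beside 5.28% and 5.75% of all genes, and leaving out the 4 libraries richest in epidermis or muscle RNA (MeHg and control replicates 4 and 5) gave 4 of 30, or 13.3% beside 10.8% of all genes. Muscle markers and retina and pineal markers also had positive medians of the log2 fold change, 0.78 over 8 tested and 1.37 over 6 tested, and 0 of either list reached an unadjusted p under 0.05 in limma. A positive share near that of the members was also seen in some lists of brain cells, but not in all. It was 7 of 8 neuron markers (median 0.13) and 6 of 7 oligodendrocyte markers (median 0.24). The share was 3 of 5 radial glia and astroglia markers (median 0.005) and 5 of 8 microglia and leukocyte markers (median 0.11). Vessel and erythrocyte markers had negative medians, -0.25 over 5 tested and -0.19 over 3 tested. The median of the members was 0.52 without MeHg replicate 4, the library with the highest muscle markers. It was 0.49 without MeHg replicate 8, the one with the highest retina and pineal markers. Without the 4 libraries richest in epidermis or muscle RNA, the median of the members exceeded that of all genes by 0.33, against 0.43 with all libraries. The part of other tissue in these medians was not tested.

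Transcription factors had larger fold changes than effectors in these libraries, a difference that was not tested. Of 23 tested factors, 20 had positive log2 fold changes with a median of 0.58. Of the 23, 9 reached an unadjusted p under 0.05 in limma, klf4 among them, all with higher values in the MeHg lineage. Of 8 tested effectors, 7 were positive with a median of 0.12, and 2 reached it, btg2 with higher and gadd45bb with lower values in the MeHg lineage. These are 39.1% of factors and 25.0% of effectors, beside 6.61% of all tested genes in either direction. Without control replicate 5 the median was 0.33 over the factors and 0.11 over the effectors. At an unadjusted p under 0.05 in limma there were then 4 factors (17.4%) and 1 effector (12.5%), beside 9.36% of all tested genes. Only npas4a had every MeHg library above every control library, 1 of 31 members beside 0.629% of all tested genes. No member had every MeHg library below every control library, a pattern of 0.739% of all tested genes.

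**Figure D1:**
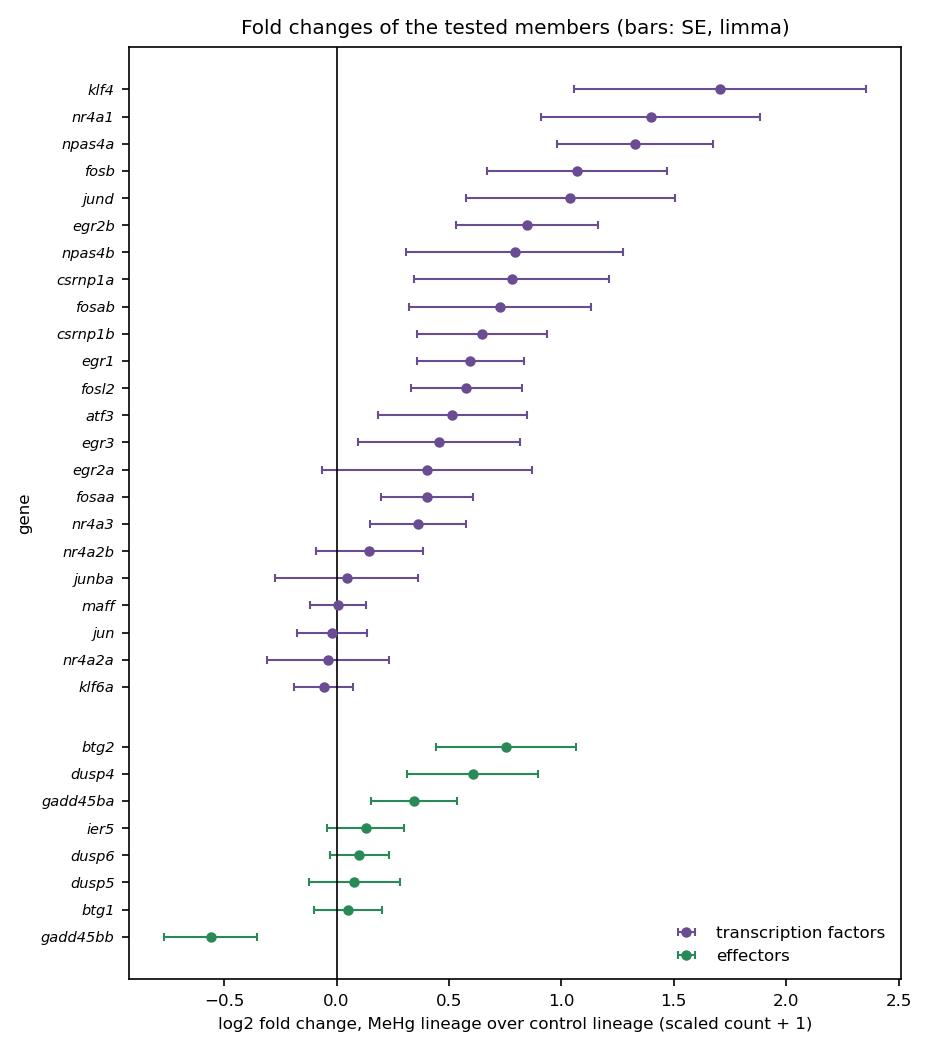
The log2 fold change of each of 31 tested members, MeHg lineage over control lineage on the log2(scaled count + 1) scale (x axis), with genes down the y axis and bars of 1 SE from limma. Factors run from klf4 at 1.70 to klf6a at -0.06, and effectors from btg2 at 0.75 to gadd45bb at -0.56.

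The most abundant members of these brains, over all 11 libraries, were egr1 at 122.5 FPKM and btg1 at 95.0 FPKM, which led in both lineages. Next over all libraries came jun at 59.6, gadd45ba at 58.5, npas4a at 54.9 and dusp6 at 54.8 FPKM, whose order differed by lineage. The listed gene egr4, found only by its identifier and not ranked here, averaged 78.6 FPKM over all libraries. The mean of npas4a was 73.6 FPKM in the MeHg lineage, above jun at 60.1 FPKM, and 32.6 FPKM in the control lineage, below jun at 59.0 FPKM. At the low end, nr4a2b averaged 2.08 FPKM. The factor fosl1a (FRA1, a FOS family protein) failed the filter, with scaled counts of 2.95 to 14.8 in MeHg libraries and 0 to 13.8 in control libraries.

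Among the bHLH-PAS factors, npas4a encodes the zebrafish NPAS4, which in mouse neurons is induced by calcium entry and shapes inhibitory synapses. Its scaled counts in MeHg libraries ran from 1484 through a median of 1766 to 2697, against 1070, 559, 278, 1148 and 1199 in control replicates 2, 4, 5, 6 and 8. The lineages did not overlap, and control replicates 4 and 5 were well below the other 3 control libraries. The mean was 1918 ± 485 in the MeHg lineage (SD, n = 6) and 851 ± 410 in the control lineage (SD, n = 5). The log2 fold change, a difference of mean log2 values and not a ratio of these means, was 1.33 ± 0.35 (SE), or 2.51-fold. It had limma unadjusted p = 0.0022 and adjusted p = 0.265. Without control replicate 5 it was 0.97 ± 0.23, with limma adjusted p = 0.131. Without the 4 epidermis- or muscle-rich libraries, it was 0.67 ± 0.15 with limma adjusted p = 0.128. Its paralog npas4b was much lower, at 6.49 FPKM, and overlapped widely between lineages, with 43.6 to 232 scaled counts in MeHg libraries and 23.0 to 113 in control libraries. Its log2 fold change was 0.79 ± 0.48, and 0.50 ± 0.49 without control replicate 5.

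Among the nuclear receptors, nr4a1 encodes NR4A1 (NUR77), which acts without a known ligand. Its scaled counts in MeHg libraries ran from 75.1 through a median of 242 to 368, against 45.7, 120, 35.5, 79.1 and 226 in control replicates 2, 4, 5, 6 and 8. MeHg replicate 8 lay among the control libraries, and control replicate 8 lay among the MeHg libraries. Its log2 fold change was 1.40 ± 0.49, with limma unadjusted p = 0.0134 and adjusted p = 0.536, and 1.11 ± 0.52 without control replicate 5. The other receptors had smaller values. Log2 fold changes were 0.36 for nr4a3, 0.15 for nr4a2b and -0.04 for nr4a2a, a relative of mammalian NURR1, the factor of dopamine neurons. The nr4a2a scaled counts ran from 46.2 to 150 in MeHg libraries, wider than the 61.7 to 79.4 of the control libraries.

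The EGR genes encode zinc-finger factors, of which egr1 is a common marker of neuronal activity. Its scaled counts in MeHg libraries ran from 1822 through a median of 2455 to 3296, against 1618, 1476, 880, 2197 and 2156 in control replicates 2, 4, 5, 6 and 8. Control replicates 6 and 8 lay inside the MeHg range. Its log2 fold change was 0.59 ± 0.24 (limma unadjusted p = 0.0272, adjusted p = 0.676), and 0.38 ± 0.19 without control replicate 5.

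For egr2b, best known as the hindbrain factor KROX20, MeHg libraries had 52.1 to 92.1 scaled counts with a median of 63.7, against 22.9, 18.6, 48.1, 52.2 and 61.0 in control replicates 2, 4, 5, 6 and 8. Control replicates 2 and 4 were far below the rest. The log2 fold change was 0.85 ± 0.32, with limma unadjusted p = 0.0192 and adjusted p = 0.634, and it was 0.94 ± 0.32 without control replicate 5, which was not low here. The paralog egr2a was 2.60 times as abundant in FPKM but scattered within lineages, with 26.7 to 176 scaled counts in MeHg libraries and 46.0 to 143 in control libraries. For egr3 the log2 fold change was 0.45 with all libraries and 0.08 without control replicate 5, where its scaled count was 50.2 against 152 to 268 in the other control libraries.

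The KLF genes also encode zinc-finger factors. The factor klf4, which in mouse is needed for the skin barrier and marks stem cells, had the largest fold change of the members, and it rests on few fragments. Its scaled counts were 13.4, 13.3, 54.4, 130, 14.7 and 21.8 in MeHg replicates 1, 2, 4, 5, 7 and 8, against 6.86, 20.2, 2.09, 12.3 and 6.47 in control replicates 2, 4, 5, 6 and 8. The high values were in MeHg replicates 4 and 5, and the highest control value was in replicate 4, the same 3 libraries with the highest epidermis markers. The part of other tissue in the klf4 difference was not tested. Its log2 fold change was 1.70 ± 0.65 (limma unadjusted p = 0.0213, adjusted p = 0.640), from 291 implied fragments over the MeHg libraries and 40 over the control libraries. Every MeHg library reached the filter's scaled count of 10 for klf4, but of the control libraries only replicates 4 and 6 did. It thus passed the filter through the lineage where it was high. Without the 4 epidermis- or muscle-rich libraries, klf4 failed the filter. For klf6a the mean was 392 ± 35.7 scaled counts in the MeHg lineage (SD, n = 6) and 412 ± 78.0 in the control lineage (SD, n = 5), with a log2 fold change of -0.06 ± 0.13.

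FOS proteins pair with JUN proteins to form the AP-1 factor. The FOS gene fosb had 71.3 to 289 scaled counts in MeHg libraries with a median of 144, against 34.3, 106, 46.0, 57.6 and 108 in control replicates 2, 4, 5, 6 and 8. MeHg replicate 5 was far above the others, and 2 MeHg libraries lay inside the control range. This gave a log2 fold change of 1.07 ± 0.40, with limma unadjusted p = 0.0197 and adjusted p = 0.637.

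The gene fosab encodes c-Fos, the standard activity marker. Its scaled counts in MeHg libraries ran from 306 through a median of 414 to 750, against 267, 606, 85.7, 257 and 317 in control replicates 2, 4, 5, 6 and 8. Control replicate 4 was second only to MeHg replicate 5 among the 11 libraries, and control replicate 5 was the lowest. The lineages differed by a log2 fold change of 0.73 ± 0.40, with limma unadjusted p = 0.095, and 0.33 ± 0.30 without control replicate 5. The FRA2 gene fosl2 had 238 to 537 scaled counts in MeHg libraries and 153 to 335 in control libraries, with a log2 fold change of 0.58 ± 0.25. The second c-Fos gene, fosaa, had 0.40 ± 0.20.

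The JUN genes had unlike patterns over the libraries. The abundant jun had 477 to 726 scaled counts in MeHg libraries with a median of 494, against 521, 510, 755, 512 and 431 in control replicates 2, 4, 5, 6 and 8. These ranges overlap throughout, and control replicate 5, low for so many other members, was the highest library for jun. The log2 fold change was -0.02 ± 0.16. For jund, by contrast, MeHg libraries had 96.3 to 176 scaled counts and control libraries 12.5 to 114, with a log2 fold change of 1.04 ± 0.46 (limma unadjusted p = 0.0439) and 0.47 ± 0.17 without control replicate 5, whose 12.5 is 6 implied fragments. For junba the mean was 198 ± 46.0 scaled counts in the MeHg lineage (SD, n = 6) and 214 ± 126 in the control lineage (SD, n = 5), where replicate 4 had 415. Its log2 fold change, a difference of mean log2 values and not a ratio of these means, was 0.05 ± 0.32, and -0.19 ± 0.29 without control replicate 5.

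Of the remaining factors, csrnp1b and csrnp1a, which encode cysteine-serine-rich nuclear proteins, had log2 fold changes of 0.65 ± 0.29 and 0.78 ± 0.43. For csrnp1b, control replicate 5 had a scaled count of 73.2 against 199 to 276 in the other control libraries, and the log2 fold change was 0.31 ± 0.14 without it. The stress-responsive bZIP gene atf3 had 0.52 ± 0.33, and 0.21 ± 0.26 without control replicate 2. The small MAF gene maff, whose protein lacks an activation domain of its own, had means that differed by less than the spread, with 279 ± 34.8 scaled counts in the MeHg lineage and 277 ± 30.1 in the control lineage (SD, n = 6 and 5).

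**Figure D2:**
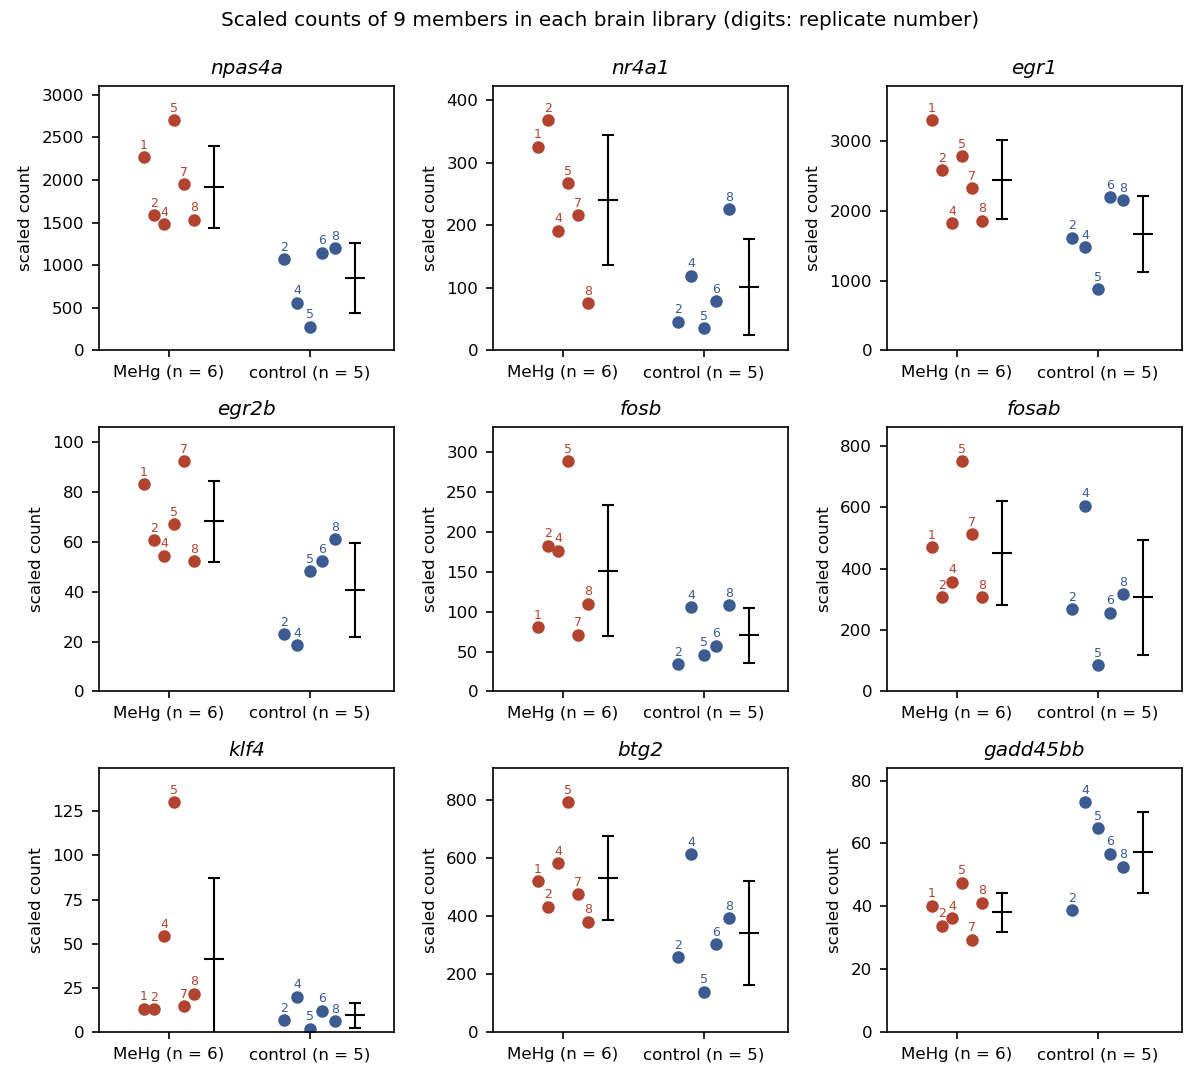
Scaled counts (y axis, from 0) of 9 members in each of 6 MeHg libraries (red) and 5 control libraries (blue), with replicate numbers beside the points and the mean ± SD in black; the lower SD bar of klf4 in the MeHg lineage runs below 0 and is cut at the axis. For npas4a the MeHg libraries sit between 1484 and 2697 and the control libraries between 278 and 1199, while the lineages overlap for the other genes shown.

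Among the effectors, btg2 encodes an antiproliferative protein that acts with the CCR4-NOT deadenylase complex. Its scaled counts in MeHg libraries ran from 380 through a median of 498 to 791, against 258, 614, 140, 303 and 394 in control replicates 2, 4, 5, 6 and 8. As for fosab, control replicate 4 was high and control replicate 5 was the lowest. The log2 fold change was 0.75 ± 0.31 (limma unadjusted p = 0.0320, adjusted p = 0.697), and 0.47 ± 0.24 without control replicate 5. Its relative btg1 was abundant, with 1451 to 2146 scaled counts in MeHg libraries with a median of 2005, against 1820, 2410, 1484, 1620 and 1882 in control replicates 2, 4, 5, 6 and 8. The btg1 log2 fold change was 0.05 ± 0.15.

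The GADD45B proteins bind stress kinases and cell cycle regulators, and mouse GADD45B is linked to activity-dependent DNA demethylation. The lower-expressed copy, gadd45bb, was the member with the most negative fold change. Its scaled counts in MeHg libraries ran from 29.5 through a median of 38.2 to 47.5, against 38.9, 73.0, 64.8, 56.8 and 52.7 in control replicates 2, 4, 5, 6 and 8. All control libraries but replicate 2 were above every MeHg library. Means were 38.1 ± 6.29 in the MeHg lineage (SD, n = 6) and 57.2 ± 12.9 in the control lineage (SD, n = 5), with a log2 fold change of -0.56 ± 0.21 (limma unadjusted p = 0.0183, adjusted p = 0.625). It was -0.51 ± 0.21 without control replicate 5.

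The more abundant copy, gadd45ba, had 268 to 633 scaled counts in MeHg libraries with a median of 369, against 290, 379, 280, 299 and 285 in control replicates 2, 4, 5, 6 and 8. The control libraries other than replicate 4 lay close together, while the MeHg libraries spread widely. The lineages differed by 0.34 ± 0.19 in log2 fold change (limma unadjusted p = 0.0937), and by 0.20 ± 0.15 without MeHg replicate 5.

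The DUSP genes of this list encode MAP kinase phosphatases that switch off ERK signalling. For dusp4, a nuclear phosphatase, MeHg libraries had 47.6 to 107 scaled counts with a median of 66.4, against 38.9, 48.2, 23.0, 72.9 and 51.7 in control replicates 2, 4, 5, 6 and 8. Ranges overlapped, and the log2 fold change was 0.61 ± 0.29 (limma unadjusted p = 0.0579, adjusted p = 0.777), and 0.38 ± 0.24 without control replicate 5. The more abundant dusp6 and dusp5 had 0.10 ± 0.13 and 0.08 ± 0.20. The immediate early response gene ier5 had 0.13 ± 0.17.

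The other 13 listed members had no row under the listed symbol and are not analysed here as members. They are the factors egr4, junbb and nfil3-1, the effectors arca, arcb, homer1b, dusp1, dusp2, sik1, ier2, ier2a and ier2b, and the period gene per2l. For 3 of them the Ensembl identifier in a reference table of names led to a row, and these are kept apart from all counts above. The kinase gene sik1, whose product restrains CRTC coactivators, had 283 to 567 scaled counts in MeHg libraries and 125 to 496 in control libraries, with a log2 fold change of 0.95 ± 0.32 (limma unadjusted p = 0.0117, adjusted p = 0.526). It was 0.70 ± 0.29 without control replicate 5. For egr4 these were 566 to 1418 in MeHg libraries and 247 to 800 in control libraries, with 0.83 ± 0.36 and limma adjusted p = 0.730. For ier2b the log2 fold change was 0.66 ± 0.30, with limma adjusted p = 0.756, and it was 0.40 ± 0.24 without control replicate 5.

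Where both zebrafish copies of a gene were tested, their levels were uneven in FPKM over all libraries. The ratio of means was 8.44 for fosab over fosaa, 8.47 for npas4a over npas4b, 8.42 for gadd45ba over gadd45bb, 5.29 for csrnp1b over csrnp1a, 2.68 for nr4a2a over nr4a2b and 2.60 for egr2a over egr2b. The sources used here do not say how reads that match both copies were assigned, and the split between copies carries that uncertainty. The order held in all 11 libraries for 5 of these pairs, and egr2a over egr2b ranged from 0.804 to 4.98.

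The members were then compared between libraries, with each member expressed as the difference of its log2(scaled count + 1) from its mean over the libraries. The mean of these over the 31 members was 0.24, 0.37, 0.12, 0.48, 0.11 and 0.03 in MeHg replicates 1, 2, 4, 5, 7 and 8, against -0.51, 0.03, -0.84, -0.13 and 0.11 in control replicates 2, 4, 5, 6 and 8. Control replicates 2 and 5 were low, control replicate 8 lay within the MeHg range, and control replicate 4 lay just below it. Implied depth was lowest in control replicates 2 and 5, at 2062482 and 2735289 fragments. It was highest in MeHg replicate 5, at 7503932, but control replicate 6, with a negative mean, had 6100929. The part of depth in these means was not tested. For factors alone the mean was 0.27 ± 0.20 in the MeHg lineage (SD, n = 6) and -0.33 ± 0.46 in the control lineage (SD, n = 5). For effectors it was 0.09 ± 0.15 in the MeHg lineage and -0.10 ± 0.26 in the control lineage, a smaller gap. No test is given for these means, since the members were listed with results of these libraries known.

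Which library is low differs between members. Control replicate 5 held the lowest value of 15 of 31 members (48.4%), beside 28.2% of all tested genes, and control replicate 2 held that of 6 members (19.4%), beside 9.19% of all tested genes. MeHg replicates 2 and 5 held the highest value of 8 members each (25.8%), beside 6.09% and 4.44% of all tested genes. Control replicate 5 held that of 1 member (3.23%), beside 25.1% of all tested genes. Control replicate 5 was not low throughout: it was the highest library for jun, its atf3 value was the highest of the control libraries, and its gadd45bb and egr2b values were inside their range.

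**Figure D3:**
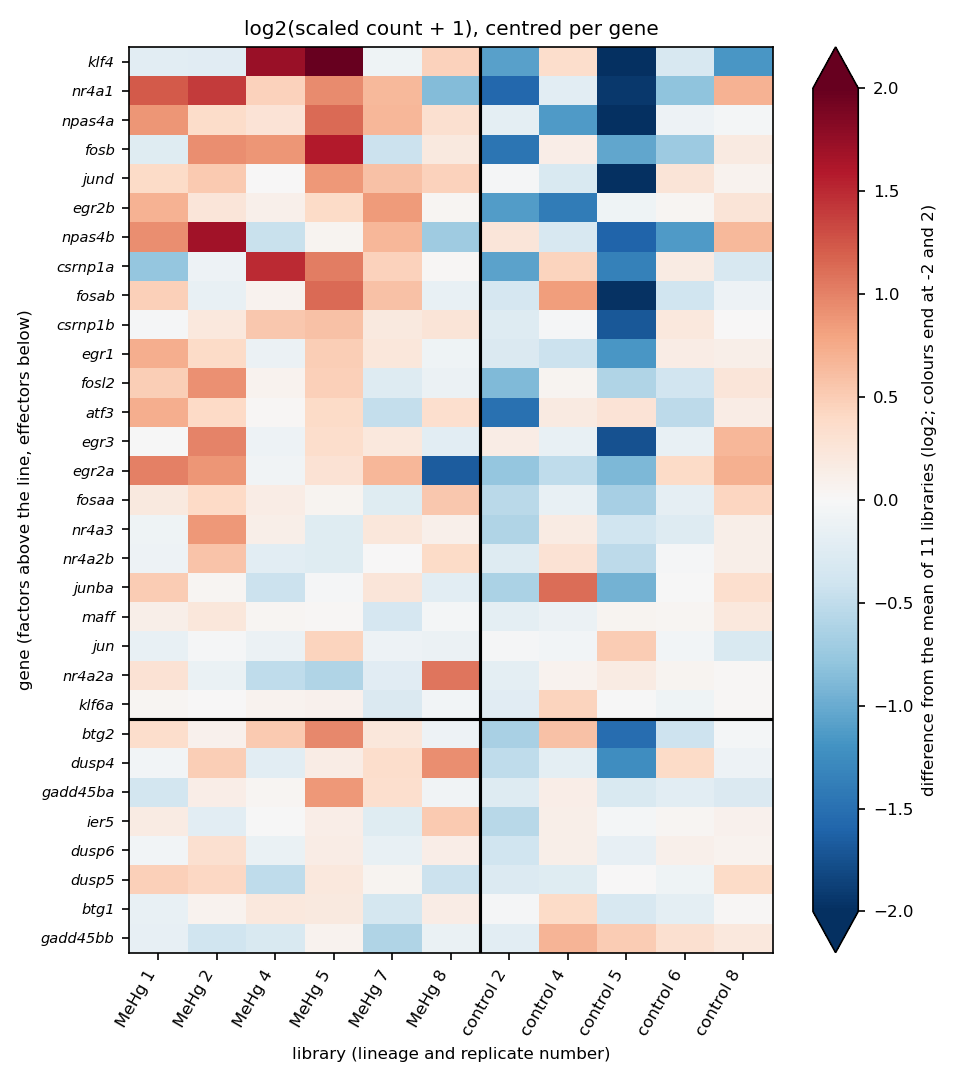
Difference of log2(scaled count + 1) from the mean of 11 libraries (colour, red higher and blue lower) for 31 tested members (rows) in 6 MeHg libraries (left) and 5 control libraries (right). The column of control replicate 5 is blue for most factors but not for jun or atf3, and control replicate 2 is blue for most members of both classes.

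Within lineages the members moved together from library to library, but not as 1 block. After lineage means were taken out, the median Pearson r was 0.26 over the 465 pairs of members and 74.2% of pairs were positive, beside a median of 0.0025 over all pairs of tested genes. It was 0.27 among factors, 0.29 among effectors and 0.24 between a factor and an effector. These r values describe 11 libraries that differ in depth and tissue content, and without control replicate 5 the median was 0.18 over the members and 0.03 over all tested genes. Without it the factors had a median r of 0.15 and the effectors 0.31.

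Over the 11 libraries the member most like the mean of the others was btg2, with r = 0.83, and nr4a1 followed with 0.81. Without control replicate 5 the order was another, with fosl2 at 0.87, nr4a1 at 0.77, fosb at 0.75 and atf3 at 0.75 ahead of btg2 at 0.66, and atf3 had 0.19 with that library in. At the other end were nr4a2a with -0.29 and jun with -0.41, and jun was at 0.22 without control replicate 5. For npas4a, the member with the smallest p between lineages, r with the mean of the others was 0.58, and 0.06 without control replicate 5. The highest r of a pair was 0.94 for btg2 and fosab, followed by 0.91 for csrnp1b and jund and 0.89 for npas4a and jund. The lowest was -0.72 for btg1 and egr2b.

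Of 8 pairs of usual activity markers, 6 could be computed, and 1 held after adjustment over the 6. The pair egr1 and npas4a had Pearson r = 0.89 (permutation p = 0.0011, adjusted p = 0.0065) and Spearman rho = 0.86 (permutation p = 0.0019, adjusted p = 0.0113) over 11 libraries. It had r = 0.77 without MeHg replicate 1 and control replicate 5. For fosab and junba, r was 0.78 (permutation p = 0.0246, adjusted p = 0.0565), rho was 0.69, and r was 0.83 without MeHg replicate 5 and control replicate 5. For egr1 and nr4a1, r was 0.71 (permutation p = 0.0282, adjusted p = 0.0565), rho was 0.61, and r was 0.57 without MeHg replicate 1 and control replicate 5.

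The pairs of fosab with egr1 and npas4a rested on a few libraries. For fosab and egr1, r was 0.59 (permutation p = 0.125, adjusted p = 0.150) with rho = 0.42, and -0.08 without MeHg replicate 5 and control replicate 5. For fosab and npas4a, r was 0.61 (permutation p = 0.171, adjusted p = 0.171) with rho = 0.42, and -0.43 without the same libraries. Single libraries moved this r from -0.01 (without control replicate 5) to 0.95 (without control replicate 4). For fosab and nr4a1, r was 0.56 (permutation p = 0.109, adjusted p = 0.150) with rho = 0.59, and 0.35 without them. Control replicate 4 shows the split: it had high fosab (606), junba (415) and btg2 (614) scaled counts but a low npas4a count (559), and it was the library with the most epidermis marker RNA, whose part in this was not tested.

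**Figure D4:**
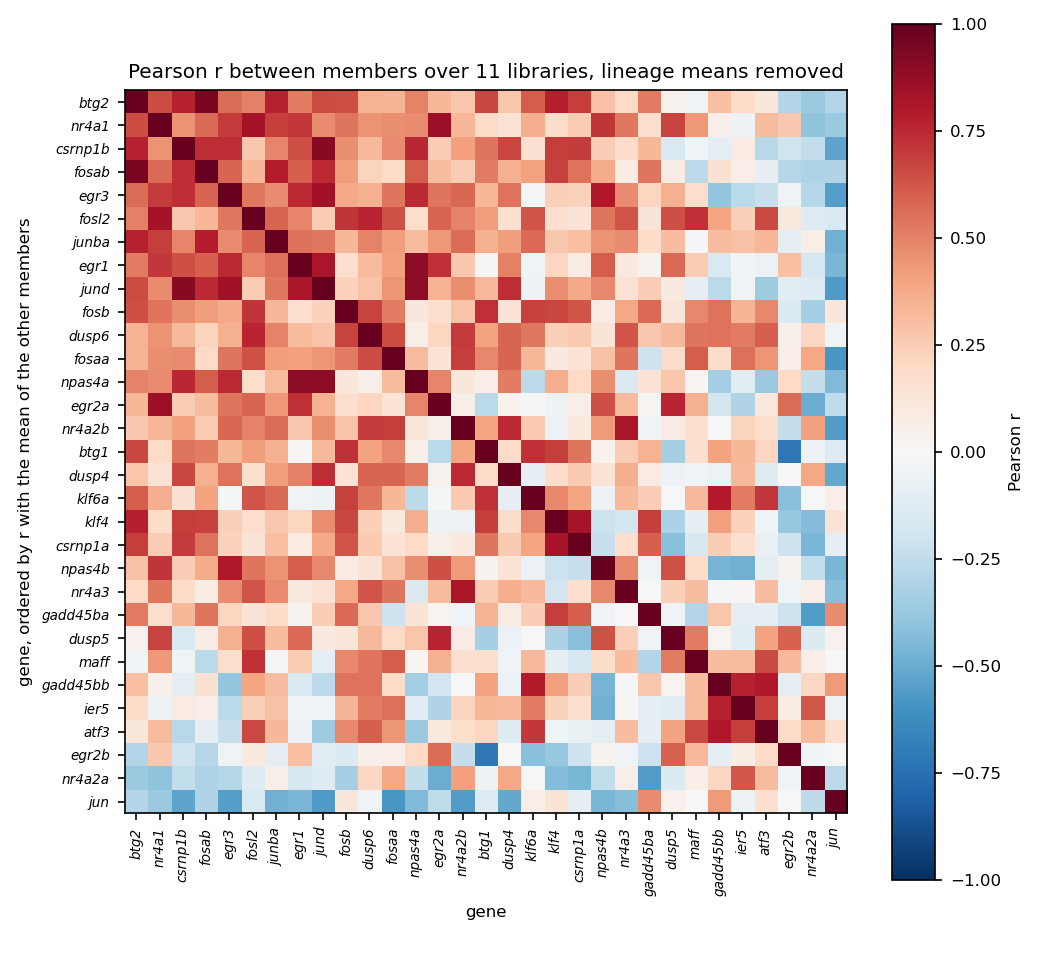
Pearson r (colour) between the log2(scaled count + 1) values of 31 tested members over 11 libraries with lineage means removed, in rows and columns ordered by r with the mean of the other members. Most pairs in the upper left are positive, from btg2 with r = 0.83 to the mean of the others, and jun at the lower right is negative with most of them.

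**Figure D5:**
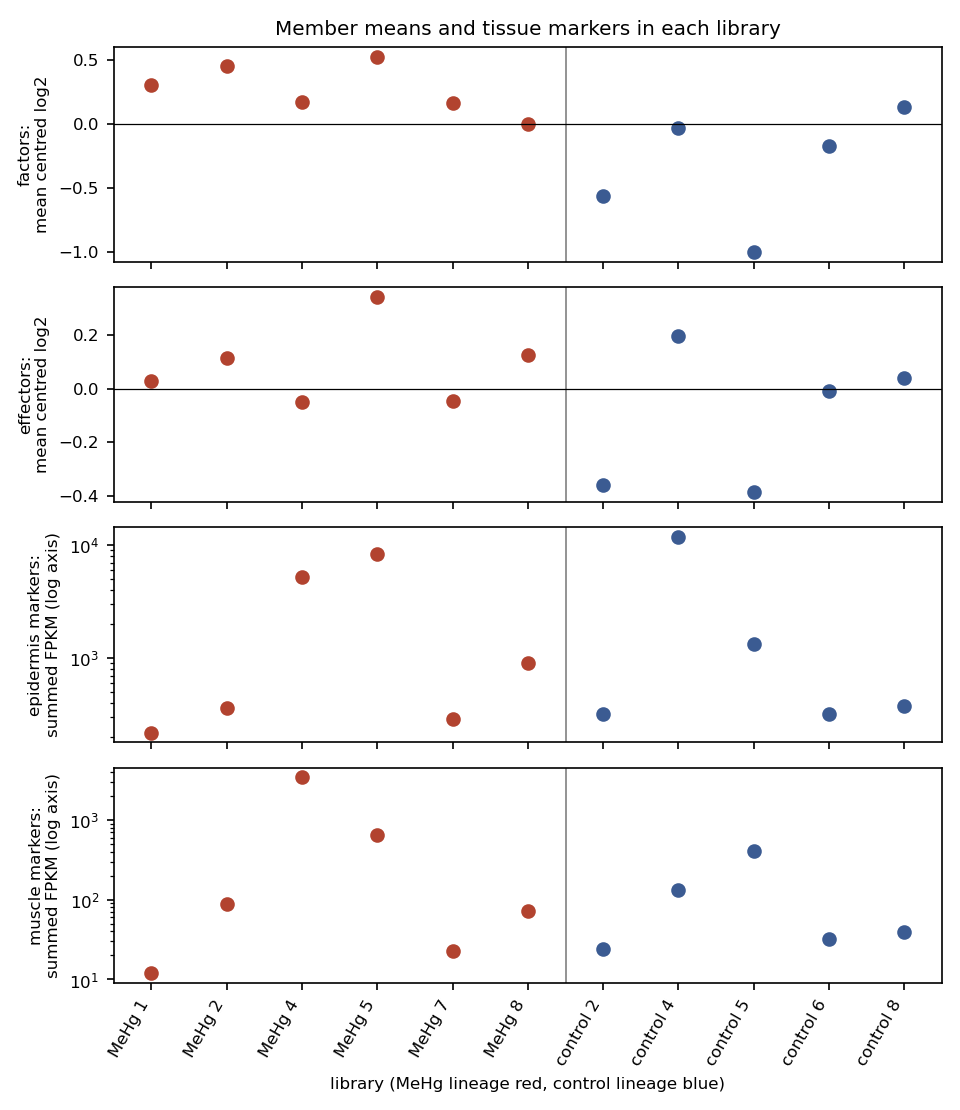
Mean centred log2 value of 23 factors and of 8 effectors, and summed FPKM of epidermis and muscle markers on log axes, in 6 MeHg libraries (red, left) and 5 control libraries (blue, right). Control replicates 2 and 5 are lowest in both member panels, while the epidermis markers are high in MeHg replicates 4 and 5 and control replicate 4.

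Genes upstream of these members had small fold changes between lineages. Listed as upstream of immediate early genes were 53 genes of kinases, phosphatases, coactivators, transcription factors and other signalling proteins. Of these, 42 were tested, and 0 passed the adjusted threshold in limma. At an unadjusted p under 0.05 in limma there was 1, or 2.38% beside 6.61% of all tested genes. That one, and the one gene of the list with every MeHg library below every control library, was mkl1b, a coactivator of serum response factor, with 258 ± 39.6 scaled counts in the MeHg lineage (SD, n = 6) and 391 ± 79.5 in the control lineage (SD, n = 5). Its log2 fold change was -0.59 ± 0.15, with limma adjusted p = 0.221. The next smallest p were those of camkk2, a calmodulin-dependent kinase kinase, with 0.32 ± 0.17, and mef2ca, a MEF2 factor, with 0.39 ± 0.23. The median log2 fold change of the 42 was 0.12. The mean centred log2 level of this list in control replicate 5 was -0.92, against -0.07 to 0.17 in MeHg libraries and 0.08 to 0.20 in the other control libraries.

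Later and secreted products of neuronal activity had a median fold change near that of all genes. Of 40 listed genes, 33 were tested, and in limma 0 passed the adjusted threshold and 0 reached an unadjusted p under 0.05, with a median log2 fold change of 0.08. The smallest p were those of inhbaa, an activin subunit gene, with 38.6 ± 19.8 scaled counts in the MeHg lineage and 20.9 ± 7.69 in the control lineage (SD, n = 6 and 5) and a log2 fold change of 0.78 ± 0.38. They were followed by gadd45gb.1 with -0.41 ± 0.28 and the potassium channel gene kcnf1a with 0.35 ± 0.25.

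Among genes outside the list, the 6 whose library pattern was most like the mean of the members, by Pearson r over 11 libraries with lineage means removed, were elmsan1b (0.95), jag2a (0.92), fam83c (0.91), dusp3a (0.91), col4a3bpa (0.91) and si:ch211-80j13.1 (0.90). Of these, dusp3a, a phosphatase gene like the DUSP members, had 266 ± 40.6 scaled counts in the MeHg lineage and 185 ± 80.9 in the control lineage (SD, n = 6 and 5), with a log2 fold change of 0.67 ± 0.32. The gene elmsan1b had a log2 fold change of 0.04 ± 0.18. Without control replicate 5, r ran from 0.79 for si:ch211-80j13.1 to 0.90 for elmsan1b over the 6 genes. Levels of jag2a were near the filter, with mean scaled counts of 12.1 in the MeHg lineage and 13.6 in the control lineage. For fam83c the spread was wide, with 22.4 ± 16.1 in the MeHg lineage and 20.0 ± 22.5 in the control lineage (SD, n = 6 and 5). Since lineage means were removed, r describes likeness within lineages for all 6 genes, whatever their fold change. Among the 3 genes matched by identifier, r with the member mean was 0.87 for sik1, 0.79 for ier2b and 0.34 for egr4. Without control replicate 5 it was 0.80 for sik1, 0.57 for ier2b and -0.15 for egr4.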

How the data were processed

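Paired-end TruSeq libraries were made from total RNA of adult F3 brains and read for 100 bp, per the labels. Tools named in the submitters' processing notes are TopHat, Cuffnorm, cutadapt, FastQC and CASAVA 1.8.2, with the build Zv9. The sources used here do not give strand, annotation or how reads matching several gene copies were handled. The authors deposited 2 tables of 32674 rows. One holds signal values, which the values themselves show to be fragment counts that the authors scaled by library. The other holds FPKM values, normalised by the authors for gene length and depth. In each, 1 column has no name and was not used, 2 in all.

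The most frequent nonzero value of each library, taken as 1 fragment, gave its implied depth. A count test was not used, since the values are not raw counts. Genes reaching a scaled count of 10 in 6 or more libraries were tested on log2(value + 1) with limma 3.58.1 (trend, robust; R 4.3.3, statmod 1.5.0), a scale that understates changes of low genes. The fit was tested on simulated data. Correlations were tested with 100000 permutations within lineages, and library measures over all 462 splits (SciPy 1.17.1). Members and lists were chosen with earlier results of these data known. Each control value, with the range and median of the MeHg libraries, is given for some members of each class. These are members whose lineages do not overlap, the 4 of smallest p, the 2 most abundant and the largest fold change. For klf4, every MeHg value is given instead of a range. The gene fosab was added for its correlations. From each context list the 3 genes of smallest p are named, and from all other genes the 6 most like the members. No sequence was used.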

Additional observations from a re-analysis of the deposited data

Results flagged for a closer look

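Of 68 groups of libraries examined (each gene in each lineage), 6 had 1 library far from the others by Dixon's criterion at the 95% level. The criterion was applied to log2(scaled count + 1), and the scaled counts are printed below. On that criterion chance alone flags about 1 in 20 groups. Control replicate 5 was far below the other control libraries for jund, with a scaled count of 12.5 against 77.7 to 114, and for csrnp1b, with 73.2 against 199 to 276. Control replicate 2 was low for ier5, with 134.9 against 192 to 216. Control replicate 4 was high for gadd45ba, with 379 against 280 to 299. In the MeHg lineage, replicate 5 was high for jun, with 726 against 477 to 522, and replicate 7 was low for sik1, with 283 against 457 to 567.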

How the results depend on the processing

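Depth limits the low members: klf4 had 1 implied fragment in control replicate 5. With 6 and 5 libraries, differences the size of the members' may go uncalled. Under every alternative run, 0 members passed, and the smallest adjusted p of a member was 0.0894, with voom. Tests of raw counts with edgeR and DESeq2 were planned and not run, because the values are not raw counts. The number of all genes past the threshold, 44, became 24 with no scaling between libraries, 71 with voom, 81 at a threshold of 0.1, and 34 to 72 with each library left out (72 without control replicate 5). With no scaling, the median log2 fold change of all genes was 0.31 and that of the members 0.74. The 27 positive members became 25 to 28 and the median of 0.45 became 0.31 to 0.64 with each library left out. The median r of 0.26 became 0.78 with no scaling and 0.18 to 0.31 with each library left out. Values with no scaling still carry the depth of each library. No median r over all genes is given for them, so the 0.78 does not show closer coordination of the members. Replicate numbers shared by the lineages (2, 4, 5 and 8) gave correlations of deviations of 0.0992, 0.463, 0.193 and 0.0554. No value for unlike numbers is given beside them, so these do not settle whether the numbers are pairs. In the main fit the numbers were not treated as pairs. With the number as a replicate block over those 8 libraries there were 20 calls and a median r of 0.49, and 23 calls in the same 8 without the block. That r also has no median over all genes beside it.

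Of 780 fold changes of members and genes matched by identifier under alternatives, 747 kept their direction and side of the threshold and 33 reversed, in 7 genes whose log2 fold change was at most 0.08 in size. With no scaling the reversed values were 0.24 (nr4a2a), 0.23 (klf6a) and 0.26 (jun). The TMM value of maff was -0.0017, and jun was 0.035 in FPKM. Over the 8 libraries, with or without the block, dusp5 was -0.049, jun 0.020 and junba -0.13. With voom klf6a was 0.0097 and jun 0.11. Without the 4 libraries rich in epidermis or muscle RNA, nr4a2a was 0.29, btg1 -0.0019, maff -0.027, klf6a 0.022 and jun 0.030. With each library left out, log2 fold changes ran from -0.011 to 0.19 for dusp5, -0.038 to 0.076 for maff, -0.11 to 0.10 for jun, -0.19 to 0.33 for junba, -0.26 to 0.079 for nr4a2a, -0.12 to 0.048 for klf6a and -0.022 to 0.15 for btg1. The r of fosab and npas4a ran from -0.012 (without control replicate 5) to 0.95. Of the ratios of copies, npas4a to npas4b became -0.054 and nr4a2a to nr4a2b 0.022 without the 4 libraries, and csrnp1b to csrnp1a ran from -0.29 to 0.052 with each library left out. The cause was not tested.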

Other observations

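The gadd45b copies were set apart after their values were seen. The log2 ratio of gadd45ba to gadd45bb was 3.33 ± 0.43 in the MeHg lineage (SD, n = 6) and 2.42 ± 0.28 in the control lineage (SD, n = 5), a difference of 0.90. An exact two-sided permutation test over 462 splits gave p = 0.0087, and p = 0.0519 adjusted over the 6 pairs of copies, which does not pass 0.05. Without MeHg replicate 1 the adjusted exact p was 0.0476, and without control replicate 5 it was 0.114, with a difference of 0.82. Without the 4 libraries rich in epidermis or muscle RNA the difference was 0.69. The exact p was then 0.114 before adjustment, which does not pass 0.05 either, and 0.686 after it. Too few splits remain there for a single pair to pass 0.05 after adjustment, so the adjusted p does not show that the difference was lost. For the other 5 pairs, with all libraries, the adjusted exact p ran from 0.629 to 0.719.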
